A study of Mus musculus with 10 samples.

Results

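The replication-dependent histone genes were examined in spontaneous lymphomas of mice that carry an allele of the transcription factor C/EBPβ giving its shortest isoform, LIP. Members were all probes whose gene name in the array files starts with Hist1h, Hist2h, Hist3h or Hist4h, the 4 named histone gene clusters of the mouse. This rule found 46 of 41174 probes, for 36 of 27827 gene names: 8 probes for the linker histone H1 and 16, 11, 3 and 8 probes for the core histones H2A, H2B, H3 and H4. Current names were found for all 46, 36 by accession and 10 by synonym, and 2 of the names (Hist3h2bb and Hist1h2al) now belong to pseudogenes. The rule also takes in genes known for their use in testis (Hist1h1t, Hist1h2aa, Hist1h2ba).

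Tumours came from 5 mice heterozygous for the LIP allele (+/L; mice 20, 866, 688, 23 and 517, aged 21, 11, 18, 20 and 20 months) and from 5 wild-type mice (+/+; mice 40, 11, 101, 17 and 19, aged 26, 29, 26.5, 20 and 23 months). The tumours arose without treatment and were taken when palpable, and each value is that of a snap-frozen piece of tumour. RNA of each tumour was put on 1 single-colour array of 60-base oligonucleotides, so n counts tumours of separate mice. +/L mouse 20 and +/+ mice 11 and 101 carry a male label and the other 7 a female label. Xist, the RNA of the inactive X chromosome, read 3.44 in mouse 11 and -5.45 in mouse 101 on the log2 scale used below, and between 1.83 and 4.18 in the female-labelled mice, and the value of mouse 20 also lay in that range, so the arrays of mice 20 and 11 go against their sex label. Leaving both out gave a median difference of the histone probes of -0.82, against -0.62 with them. Leaving out 1 tumour at a time gave -0.90 (without +/L mouse 20) to -0.32 (without +/L mouse 866), with -0.41 without +/L mouse 517 and -0.42 without +/+ mouse 101, and the authors' deposited value table gave -0.33.

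Each value below is the log2 of the processed signal minus the log2 of the array's 75th percentile, so 0 is the 75th percentile of that array. The probes of an array respond differently to the same amount of RNA, so differences are between tumours for 1 probe; mean signal served only to choose which probes of a class to name. That percentile was 309 to 651 units in +/L and 199 to 340 units in +/+ arrays, and the share of spots well above background was 48.0% to 64.7% and 52.9% to 66.7%. In bulk tissue, fewer cells of a type and less RNA per cell cannot be told apart. B cell markers were measured on these arrays for 8 of 8 listed genes and T cell markers for 10 of 10: Cd79a, a part of the B cell receptor, averaged 0.71 ± 1.26 in +/L and 1.01 ± 0.35 in +/+ tumours, Cd3e, a part of the T cell receptor complex, -0.32 ± 0.63 and 0.46 ± 0.97, and Cd8a, a T cell co-receptor, 2.80 ± 1.14 and 2.16 ± 1.32 (SD, n = 5 each). The lowest p of these lists belonged to Cd79b (-0.35) and Blk (-0.35) among B cell and to Cd4 (-0.68) and Cd3e (-0.78) among T cell genes. +/L mouse 866 stood apart in B cell markers, with a score (each gene centred on its mean over the 10 tumours, then averaged over genes) of -1.88, against -0.15 to 0.76 in the other 9 tumours.

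Replication-dependent histone genes are switched on together as a cell enters S phase, when new DNA has to be packed: pairs of H2A with H2B and of H3 with H4 form the core particle, and H1 sits on the DNA between particles. Most lie in clusters, are free of introns and give messages that end in a conserved stem-loop instead of a poly(A) tail. The stem-loop binding protein, Slbp, guides their processing and translation, and Npat drives their transcription. Some of these genes also give longer messages that run past the stem-loop and end in a poly(A) tail, chiefly in cells that have left the cycle. The labelling kit named in the labels primes RNA from poly(A).

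Because of that structure, each probe was placed by what its 60 bases hold. By this sorting, which was made after the values had been seen, 26 probes (22 gene names) read histone residues in 1 frame and lie in the coding sequence, 3 lie at the end of the message around the stem-loop (Hist1h2ab, Hist1h2ae and Hist1h3a, the last holding the whole stem-loop), and 17 lie further 3′. The 26 coding probes start at most 661 bases into their transcript record and hold 45% to 75% G and C. The 17 further 3′ probes start 510 to 2774 bases in and hold 23.3% to 45% G and C.

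Some coding probes of a class read nearly the same letters: of 68 pairs of coding probes of a class, 13 overlap over at least 30 bases with at least 85% of them the same. By their listed RefSeq records, 13 of the 26 coding probes read several histone genes, up to 4. The probes for the 3 H2A genes with the lowest p of a lower mean in +/L show this. The first begins at the start codon, and capitals mark the 40 bases it shares with the second; in the third, capitals mark the 5 mismatches to the first.
Hist1h2ak: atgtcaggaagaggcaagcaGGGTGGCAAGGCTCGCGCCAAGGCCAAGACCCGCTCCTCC
Hist1h2af: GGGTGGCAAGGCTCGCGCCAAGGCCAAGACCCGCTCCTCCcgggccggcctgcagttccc
Hist1h2ai: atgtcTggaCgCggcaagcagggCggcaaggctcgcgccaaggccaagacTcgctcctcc

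These lie on chromosome 13 of mm9, at chr13:21845637-21845696 (minus strand), chr13:23625800-23625859 (plus strand) and chr13:21879028-21879087 (minus strand). Probes of the H4 genes Hist1h4d and Hist1h4f share 50 bases, in capitals, and those of the H2B genes Hist1h2bk and Hist1h2bm differ at the 2 bases in capitals, so a signal of any of these probes cannot be given to 1 gene.
Hist1h4d: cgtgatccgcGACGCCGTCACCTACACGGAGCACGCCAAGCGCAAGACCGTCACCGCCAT
Hist1h4f: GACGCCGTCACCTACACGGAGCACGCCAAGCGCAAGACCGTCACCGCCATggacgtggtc
Hist1h2bk: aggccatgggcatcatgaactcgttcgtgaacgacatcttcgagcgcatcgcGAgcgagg
Hist1h2bm: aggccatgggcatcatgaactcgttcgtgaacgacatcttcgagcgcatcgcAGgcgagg

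Their places in mm9 are chr13:23673665-23673724 (plus), chr13:23643249-23643308 (minus), chr13:22127928-22127987 (plus) and chr13:21814139-21814198 (plus).

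Site and detection went together. All 26 coding probes were well above background on all 10 arrays, as were 43.5% of all probes. Of the 17 further 3′ probes, 6 were well above background on all 10 arrays, 5 on some and 6 on none. Of all probes, 22.5% were so on none. The 6 that were not above background on any array were Hist1h1d, Hist1h2ac, Hist1h2be and Hist4h4 and both such probes of Hist2h2aa1, all starting 1283 to 2300 bases into the record. For Hist1h1d, Hist2h2aa1 and Hist4h4 a coding probe was well above background in all 10 tumours. In all, 40 members passed the filter of at least 3 arrays well above background (26 coding, 3 stem-loop, 11 further 3′), as did 26410 of all probes.

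The question of the design was whether histone messages differ between +/L and +/+ lymphomas. No histone probe passed the threshold: with limma, 0 of 26410 probes had an adjusted p under 0.05 (0.0%), and the lowest adjusted p of a histone probe was 0.594. At an unadjusted p under 0.05, 15 of the 40 histone probes had a lower mean in +/L, against 4.67% of all probes, and 0 had a higher mean, against 3.29%. All 15 were coding probes. Their number was 6 without +/L mouse 866, without +/L mouse 517 or without +/+ mouse 101, 8 without +/+ mouse 11 and 0 with age as a covariate. In the same order, 997, 828, 722, 1223 and 903 of all 26410 probes were lower at that p. The groups of all 40 probes overlapped, where 1.22% of all probes did not overlap with +/L lower and 0.579% with +/L higher.

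In the main fit the direction of the difference went with the site of the probe, and the sites also differ in base composition, as given above. All 26 coding probes had a lower mean in +/L, with a median log2 difference of -0.95 (range -1.38 to -0.09). Of the 26, 24 were lower with quantile scaling, normexp or the deposited value table, with medians of -0.66, -0.64 and -0.54. In the same order, 15226, 14089 and 13642 of all 26410 probes were lower. The median of -0.95 stands beside a median of 0.01 over all probes, of which 13068 had a lower mean in +/L. Of the 11 further 3′ probes that were kept, 2 had a lower mean in +/L and the median difference was 0.31 (range -0.75 to 0.91). In that fit 0 of the 11 had an unadjusted p under 0.05. Without +/L mouse 20 their median was 0.05, with 4 of 11 lower, and without +/L mouse 866 it was 0.21, with 4 lower. Over all 17 further 3′ probes, with no filter, 3 had a lower mean and the median was 0.29. The 3 stem-loop probes had differences of -1.01 (Hist1h2ab), -0.24 (Hist1h2ae) and -0.28 (Hist1h3a). With age as a covariate the median of the coding probes was -0.15, with 20 of 26 lower, and with no scaling between arrays 18 of 26 were lower. Of all 26410 probes, 11572 were lower with age as a covariate and 2239 with no scaling.

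**Figure D1:**
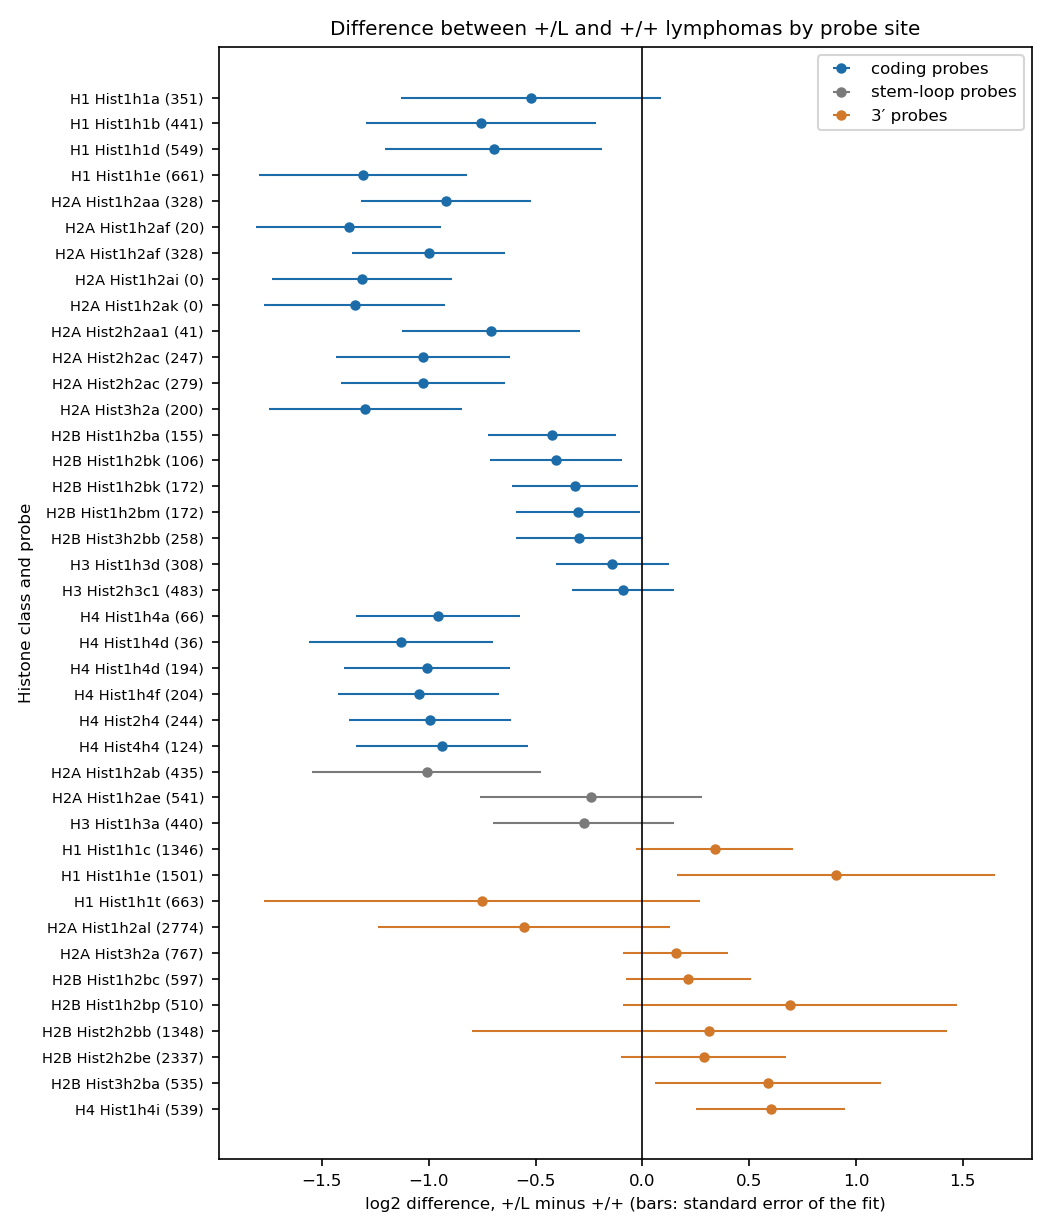
Log2 difference between +/L and +/+ lymphomas (x axis; positive is higher in +/L) for each of the 40 kept histone probes (rows, with class and start in the transcript record); points are limma estimates, bars their standard errors and colours the site of the probe. All 26 coding probes lie left of 0, and 9 of the 11 further 3′ probes lie right of it.

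Among the core histones, the H2A probes carried the largest coding differences. Hist1h2ak had values of 4.98, 3.53, 4.47, 5.27 and 3.65 in the +/L tumours of mice 20, 866, 688, 23 and 517, against 5.33, 6.12, 6.70, 5.17 and 5.30 in the +/+ tumours of mice 40, 11, 101, 17 and 19. Mice 866 and 517 were low among +/L and mice 11 and 101 high among +/+, and the groups overlapped only through +/L mouse 23, which lay above +/+ mouse 17. The log2 difference was -1.35 (SE 0.43; limma unadjusted p = 0.0095, adjusted p = 0.594; exact two-sided permutation p = 0.0159, the smallest possible being 0.0079).

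The probes of Hist1h2af near its start codon, of Hist1h2ai and of the coding part of Hist3h2a, an H2A gene of the Hist3 cluster on chromosome 11, gave differences of -1.38 (SE 0.435), -1.31 (SE 0.42) and -1.30 (SE 0.45). Their adjusted p in the limma fit was 0.594 in all 3 cases. A second coding probe of Hist1h2af, starting at base 328, averaged 8.14 ± 0.69 in +/L and 9.14 ± 0.47 in +/+ tumours. Hist1h2aa, known for its use in testis, averaged 8.32 ± 0.80 and 9.24 ± 0.50, but its probe shares a run of 44 bases with that second probe of Hist1h2af, so signal of the testis gene and of the common H2A genes cannot be told apart. Hist2h2ac, from the Hist2 cluster on chromosome 3, averaged 7.78 ± 0.77 and 8.81 ± 0.58 (SD, n = 5 each). Over the 9 coding H2A probes, 8 had an unadjusted p under 0.05 and a lower mean in +/L, against 4.67% of all probes. Their median difference was -1.03. Some of them overlap in sequence, as shown above, so they are not separate results.

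The coding H4 probes also had their lowest values in +/L mice 866 and 517 and their highest in +/+ mice 101 and 11. Hist1h4f had values of 6.10, 5.03, 6.22, 6.65 and 5.27 in +/L tumours (mice 20, 866, 688, 23 and 517) and 6.70, 7.21, 7.75, 6.45 and 6.41 in +/+ tumours (mice 40, 11, 101, 17 and 19). As for Hist1h2ak, +/L mouse 23 alone reached into the +/+ range. The difference was -1.05 (SE 0.38; limma adjusted p = 0.595). The Hist1h4d probe shown above averaged 5.36 ± 0.75 in +/L and 6.37 ± 0.53 in +/+ tumours, and Hist2h4 averaged 4.65 ± 0.70 and 5.64 ± 0.55 (SD, n = 5 each). All 6 coding H4 probes, some of which overlap in sequence, had an unadjusted p under 0.05, with differences from -1.13 to -0.94. The share of all probes at that p and lower in +/L was 4.67%.

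H2B and H3 had smaller differences. Hist1h2bm had values of 3.22, 2.78, 2.59, 3.35 and 2.26 in +/L tumours and 2.82, 3.25, 3.86, 3.06 and 2.71 in +/+ tumours, in the same order of mice, a difference of -0.30 (SE 0.29; limma adjusted p = 0.822). Its values in the 2 groups lay largely over each other. Hist1h2bk (base 172) gave -0.32 (SE 0.29), and Hist3h2bb -0.30 (SE 0.30), though the record of this pseudogene's probe is also that of the gene now called H2bu2. None of the 5 coding H2B probes had an unadjusted p under 0.05, and their differences ran from -0.42 to -0.30. With no scaling between arrays the 3 named ones turned to 0.26 to 0.28, where the median over all probes was 0.58.

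For H3, Hist2h3c1 had values of 6.58, 5.58, 6.02, 6.16 and 5.69 in +/L tumours and 5.99, 6.10, 6.57, 5.85 and 5.98 in +/+ tumours. Its probe lies at chr3:96051157-96051216 (mm9, plus strand) and reads the same stretch in 3 listed genes.
Hist2h3c1: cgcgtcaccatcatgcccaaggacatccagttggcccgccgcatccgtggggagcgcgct

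The highest value belonged to +/L mouse 20, and the difference was -0.09 (SE 0.24; limma adjusted p = 0.942). Hist1h3d gave -0.14 (SE 0.26) and the stem-loop probe of Hist1h3a -0.28 (SE 0.42). The 3 H3 differences turned positive under some scalings of the arrays or with age as a covariate. Whether H2A and H4 differ from H2B and H3 in their change was not tested.

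The linker histone H1 showed the contrast between sites within 1 gene. The coding probe of Hist1h1e ends with the stop codon and lies at chr13:23713707-23713766 (mm9, minus strand).
Hist1h1e: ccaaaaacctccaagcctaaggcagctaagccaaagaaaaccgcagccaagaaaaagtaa

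It had values of 3.37, 1.95, 3.45, 3.93 and 2.29 in +/L tumours and 3.73, 4.68, 5.51, 3.38 and 4.23 in +/+ tumours, a difference of -1.31 (SE 0.49; limma adjusted p = 0.596). The probe starting at base 1501 of the gene's other record read -2.87, -5.28, -6.90, -5.23 and -3.60 in +/L tumours and -6.65, -4.54, -6.21, -4.67 and -6.33 in +/+ tumours. Of the +/L arrays 3 measured it well above background, and of the +/+ arrays 2. Its difference was 0.91 (SE 0.74; limma adjusted p = 0.782), but 0.089 with normexp and quantile scaling, 0.052 with the deposited value table and 0.43 without +/L mouse 20. Over the 10 tumours the 2 probes correlated at -0.36.

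Hist3h2a also has a probe at each of these sites, but the difference of its 3′ probe was smaller than its standard error. Its coding probe, at chr11:58768387-58768446 (mm9, plus strand), is the following.
Hist3h2a: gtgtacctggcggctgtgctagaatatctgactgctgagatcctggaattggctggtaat

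It read 6.69, 4.18, 5.65, 5.61 and 5.41 in +/L tumours and 6.40, 7.14, 7.77, 6.25 and 6.47 in +/+ tumours. The probe starting at base 767 read 1.56, 1.15, 0.82, 1.05 and 1.04 in +/L tumours and 1.01, 0.75, 1.20, 1.49 and 0.40 in +/+ tumours, a difference of 0.16 (SE 0.24; limma adjusted p = 0.899). Both probes were well above background in every tumour, and their values correlated at -0.01.

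Of the other H1 genes, Hist1h1b averaged 1.82 ± 1.1 in +/L and 2.58 ± 0.74 in +/+ tumours at its coding probe. Hist1h1c has only a further 3′ probe here, which read 3.57, 2.82, 1.76, 1.95 and 1.54 in +/L tumours, against 2.21, 2.08, 1.82, 2.03 and 1.83 in +/+ tumours. +/L mice 20 and 866 were the highest of all 10, and the difference was 0.34 (SE 0.37; limma adjusted p = 0.846). Of the 11 further 3′ probes 9 had a higher mean in +/L. Hist1h4i read 1.96, 1.89, 1.67, 1.80 and 1.15 in +/L tumours and 0.43, 1.68, 1.86, 1.30 and 0.20 in +/+ tumours (difference 0.60, SE 0.35; limma adjusted p = 0.687). Hist3h2ba had a mean of 0.03 ± 0.59 for +/L and -0.55 ± 1.16 for +/+ (SD over 5 tumours). Hist1h2bp, Hist2h2bb, Hist2h2be and Hist1h2bc, named after their values were seen, had differences of 0.69, 0.31, 0.29 and 0.22, and Hist1h1t one of -0.75. The pseudogene Hist1h2al cleared background in 0 of 5 +/L and 3 of 5 +/+ tumours, at a signal too near the arrays' lowest measured ones to bound a fold. The 17 kept members that the naming rule given below did not choose, some of which are given above, had unadjusted limma p-values between 0.0225 and 0.784.

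**Figure D2:**
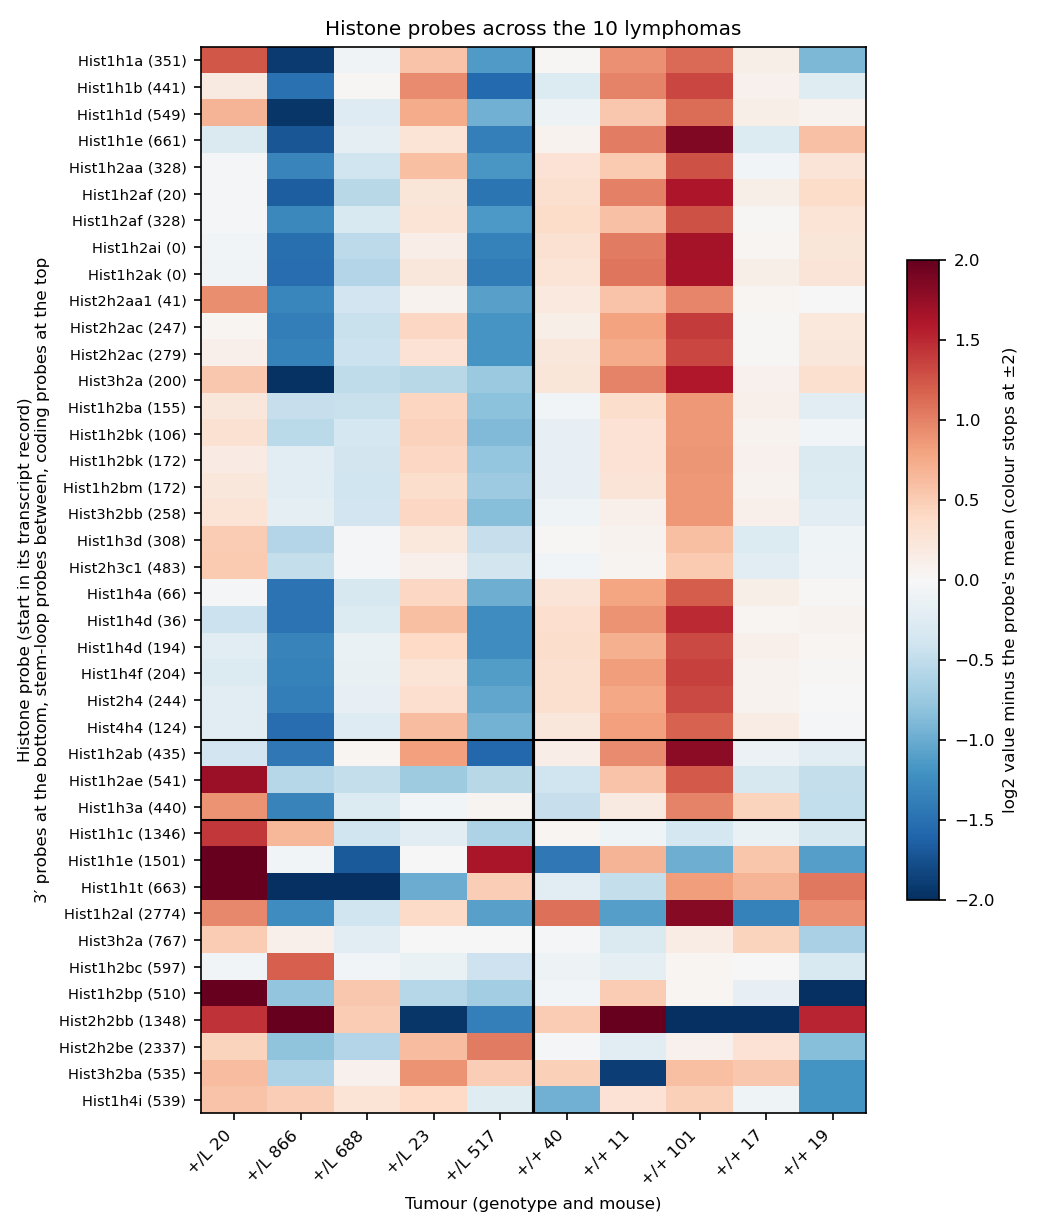
Log2 value minus the probe's mean over the 10 tumours (colour) for the 40 kept histone probes (rows) in each tumour (columns, +/L left of the line and +/+ right of it). All 26 coding probes lie below their mean in +/L mice 866 and 517 and above it in +/+ mouse 101, while the further 3′ probes hold both signs in these tumours and +/L mouse 20 is highest for 6 of them.

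Among themselves, the coding probes varied together from tumour to tumour. The median Pearson correlation over the 10 tumours was 0.881 for the 325 pairs of coding probes, with the lowest at 0.59, against 0.05 for coding probes paired with every other kept probe. Within a class the median was 0.983 (68 pairs), and it was 0.973 for the 54 of these pairs that neither overlap as above nor share a run of 20 bases, a choice made after the data were seen. Between classes it was 0.852 (257 pairs). H2A and H4 probes correlated at a median of 0.975, and at 0.921 with quantile scaling. The correlations of H3 depended on the scaling: with H4 the median was 0.735 and with quantile scaling 0.245, with H2A 0.775 and 0.438, and with H1 0.841 and 0.460. By position in the genome, the median was 0.883 for pairs inside the Hist1 cluster and 0.879 for pairs of a Hist1 gene with a gene of another cluster. These correlations share arrays and scaling, and are given as a description.

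The further 3′ probes correlated less. Their median correlation was 0.27 among themselves (55 pairs) and 0.04 with coding probes (286 pairs). Of the 11, 5 were well above background on only 3 to 7 arrays: Hist1h1e at base 1501, Hist1h1t, Hist1h2al, Hist1h2bp and Hist2h2bb. The other 6, like all 26 coding probes, were so on all 10. How far signal near background lowers these correlations was not tested. The mean score of these probes, given per tumour below, correlated with that of the coding probes at r = 0.14 but at a Spearman rho of 0.65, and r was 0.37 without +/L mouse 20 and +/+ mouse 19. Against the coding probes, the median correlation of a further 3′ probe ran from -0.40 for Hist1h2bc to 0.57 for the pseudogene Hist1h2al. Hist2h2bb (-0.31), Hist1h1e at base 1501 (-0.22), Hist1h1c (-0.13) and Hist3h2a at base 767 (-0.05) were below 0. Hist1h4i (0.02), Hist3h2ba (0.03), Hist2h2be (0.06), Hist1h2bp (0.17) and Hist1h1t (0.35) were above it. Of the stem-loop probes, Hist1h2ab had a median correlation of 0.93 with the coding probes, Hist1h3a one of 0.61 and Hist1h2ae one of 0.54, where every coding probe was at 0.75 or above.

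**Figure D3:**
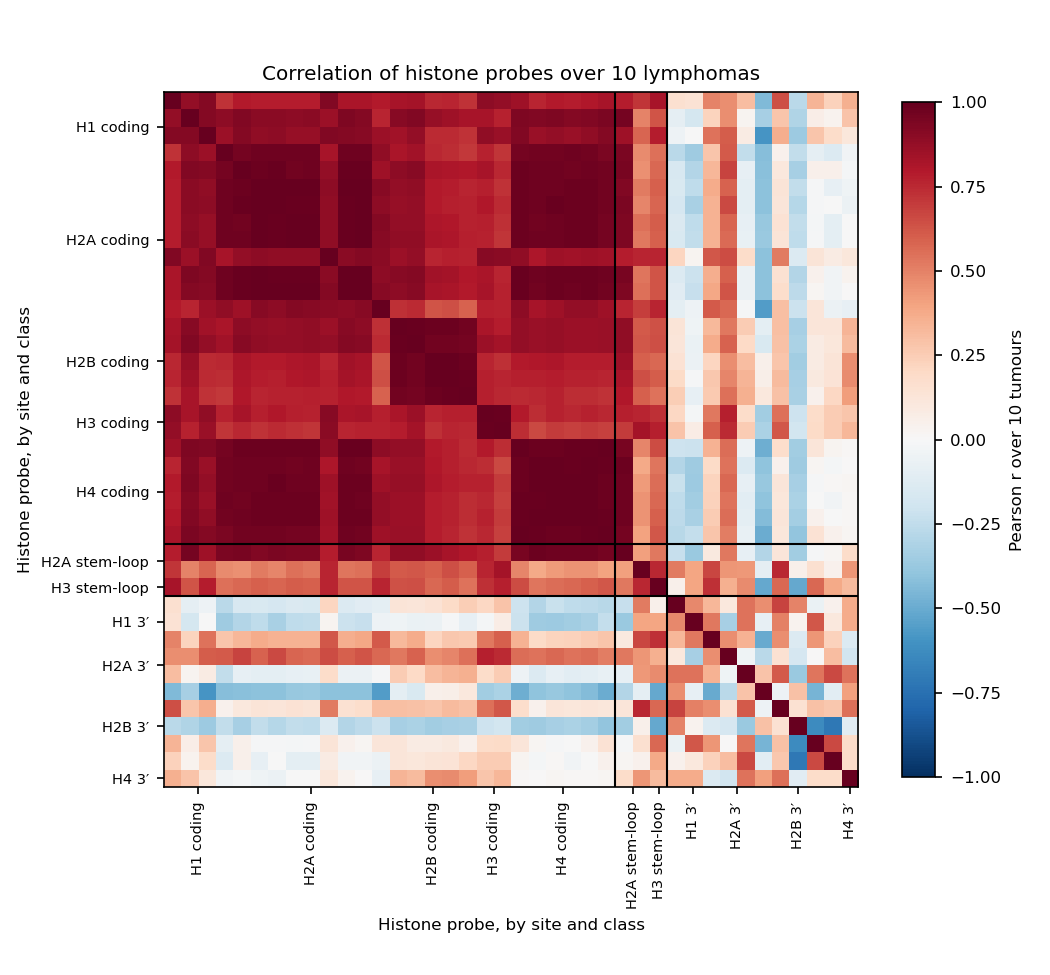
Pearson correlation over the 10 tumours (colour) between each pair of the 40 kept histone probes, ordered by site and class, with lines between coding, stem-loop and further 3′ probes. The block of coding probes is red throughout, with the lowest of 325 pairs at 0.59, and the 3′ block holds both signs.

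A score for each tumour, the mean over probes of the log2 value minus the probe's mean, put the coding histones at 0.16, -1.22, -0.30, 0.36 and -1.04 in the +/L tumours of mice 20, 866, 688, 23 and 517. In the +/+ tumours of mice 40, 11, 101, 17 and 19 it was 0.12, 0.66, 1.21, 0.04 and 0.02. +/+ mouse 101 was the highest tumour for 24 of the 26 coding probes and +/L mouse 20 for the other 2, and +/L mouse 866 was the lowest for 20 and +/L mouse 517 for 6. The group means were -0.41 ± 0.70 and 0.41 ± 0.52 (SD, n = 5 each). Within slides the difference was -0.16 on slide 1 (2 +/L and 2 +/+ arrays), -1.0 on slide 2 (2 and 1) and -1.83 on slide 3 (1 and 2). With slide as a block, the median over coding probes was -1.05. In that fit 14 of 40 histone probes had an unadjusted p under 0.05 and a lower mean in +/L, as did 886 of 26410 probes.

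The score of the further 3′ probes was 1.36, -0.15, -0.37, -0.14 and -0.07 in +/L tumours and -0.06, -0.06, -0.00, -0.13 and -0.38 in +/+ tumours, in the same order of mice. +/L mouse 20 stood alone: it was the highest tumour for 6 of the 11 probes. Without it the median difference of these probes was 0.05. The plasma cell markers also had their highest score in this tumour, 2.11, against -1.34 to 0.14 in the other +/L and -0.16 to 0.32 in +/+ tumours, and its T cell marker score was the lowest, at -1.73. Their part in the result was not tested.

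Genes of the cell cycle were set beside the coding histones. None of 36 DNA replication genes, 25 mitosis genes or 17 histone chaperone genes passed the threshold between genotypes, and their median differences were -0.10, -0.03 and -0.22; the 2 replication genes of lowest p were Mcm5 (-0.59) of the replicative helicase and Lig1 (-0.52), which joins Okazaki fragments. Pcna, the sliding clamp of the polymerases, averaged 4.88 ± 0.35 in +/L and 4.95 ± 0.57 in +/+ tumours, and Mki67, a marker of cycling cells, 4.93 ± 0.53 and 5.08 ± 1.0 (SD, n = 5 each). The coding histone score correlated over the 10 tumours with the DNA replication score at r = 0.60 (Spearman rho 0.54), with the mitosis score at 0.64 (rho 0.60) and with Mki67 at 0.70 (rho 0.70). Without +/+ mice 11 and 101, the tumours farthest from the median of these measures, the values were 0.24, 0.37 and 0.45. +/L mice 866 and 517 and +/+ mice 40, 19 and 17 had low replication scores of -0.48 to -0.37, but coding histone scores of -1.22 and -1.04 in the 2 +/L tumours and 0.02 to 0.12 in the 3 +/+ tumours. No slide holds enough tumours for a correlation of its own; with slide means removed, the replication score gave 0.63.

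**Figure D4:**
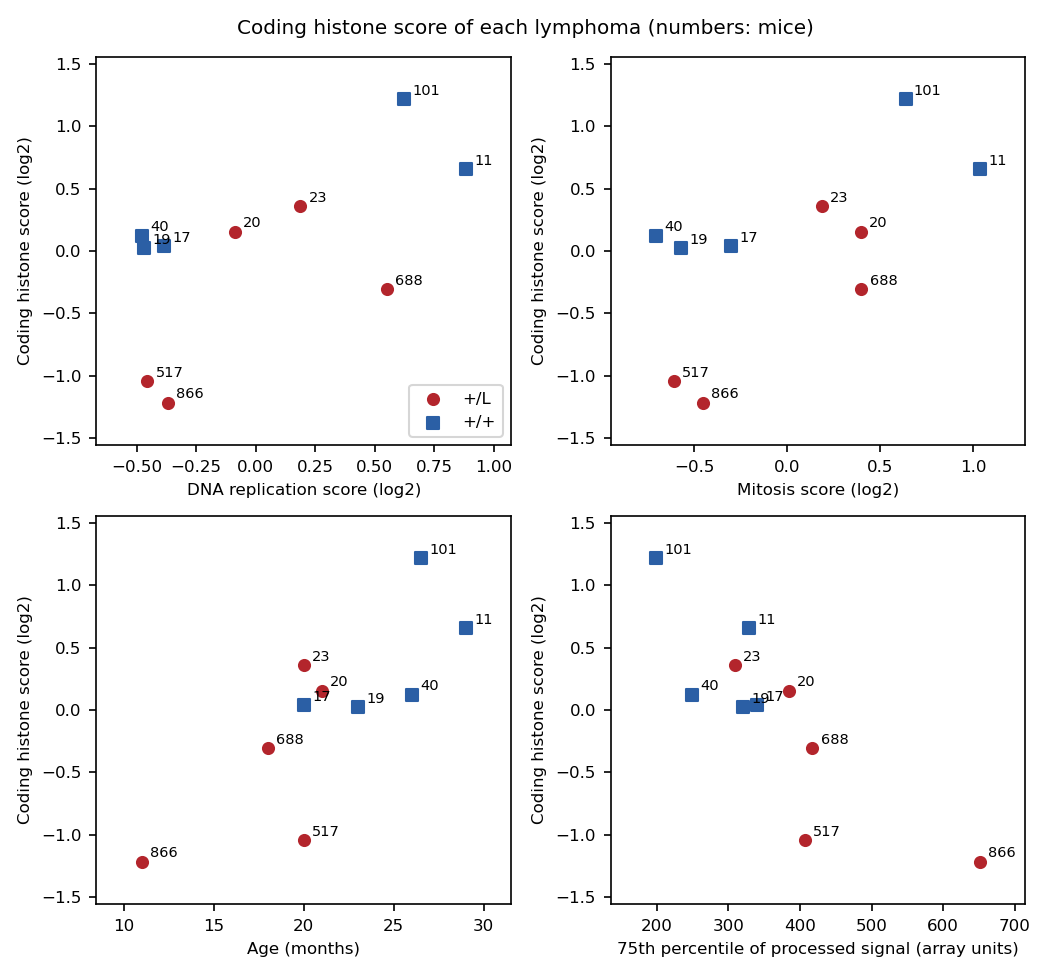
Coding histone score of each tumour (y axis, log2) against its DNA replication score, its mitosis score, the age of the mouse and the 75th percentile of its array's processed signal; red circles are +/L and blue squares +/+ tumours, with mouse numbers. Over the 10 tumours r is 0.60, 0.64, 0.79 and -0.85 (the last on the log2 of the percentile).

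RNA of genes for proteins that act on histone messages was measured for 22 of 25 listed genes, and 0 passed the threshold. Slbp averaged 3.22 ± 0.29 in +/L and 3.25 ± 0.52 in +/+ tumours. Npat was the 1 gene of the list with an unadjusted p under 0.05 and a higher mean in +/L, at -0.84 ± 0.25 against -1.49 ± 0.43 (difference 0.65, SE 0.24; limma adjusted p = 0.596), and Upf1, which takes part in the decay of histone messages, had a difference of -0.44. Lsm11, a subunit of the U7 particle that cuts histone messages, gave the highest correlation of this list with the coding histone score, 0.964, whereas Slbp gave 0.38 and Npat -0.15; Lsm11 was named after its values were seen. Of the chaperones, Cabin1 and Daxx had the lowest p, with differences of -0.45 and -0.37, and Bub1 (-1.01) and Kif20a (-0.49) among the mitosis genes.

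Histone variants that the member rule does not take in were kept for 12 of 16 listed genes, and 0 passed. H2afz averaged 5.85 ± 0.52 in +/L and 5.99 ± 0.59 in +/+ tumours, and H3f3b 6.30 ± 0.30 and 6.29 ± 0.24 (SD, n = 5 each). H2afj and H1fx had the lowest p of the list: H2afj averaged 8.11 ± 0.68 and 9.04 ± 0.49 (difference -0.93; limma adjusted p = 0.596), and H1fx 7.76 ± 0.71 and 8.74 ± 0.72 (difference -0.98; limma adjusted p = 0.615). The H2afj probe followed the coding histone score at r = 0.992, but it shares a run of 29 bases with a probe of Hist1h2af, so that signal of H2afj and of clustered H2A genes may not be separable.

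Several measures of the tumours and arrays moved with the coding histone score, and their part in the result was not tested. Age averaged 18.0 ± 4.06 months in +/L and 24.9 ± 3.47 months in +/+ mice (SD, n = 5 each), and correlated with the score at r = 0.79 (rho 0.77), and at 0.62 without +/L mouse 866 and +/+ mouse 11. Of the 3 mice aged 20 months, +/L mice 23 and 517 scored 0.36 and -1.04 and +/+ mouse 17 scored 0.04. The log2 of the array's 75th percentile, which is subtracted from every value, correlated at -0.85 (rho -0.77; -0.55 without +/L mouse 866 and +/+ mouse 101). With no scaling between arrays the median over all probes was 0.58 and that of the coding probes -0.37. The neutrophil marker score, whose 6 genes all had a higher mean in +/L (S100a9, by 2.99, and S100a8, by 2.75, had the lowest p), correlated at -0.65, and at -0.29 without +/+ mice 11 and 101. Adipocyte markers had a higher mean in +/L for 6 of 6 genes (median 2.95; Cfd, by 5.03, and Retn, by 3.44, had the lowest p), with scores of -2.23 to 4.47 in +/L and -3.12 to 2.16 in +/+ tumours. The complement genes C1qa (-1.44) and C1qb (-1.58) had the lowest p of the macrophage list, where Mrc1 (2.58) and Marco (1.79) went the other way. The contractile genes Acta2 (-1.44) and Tagln (-1.12) had the lowest p of the smooth muscle list, where Cnn1 (2.90) and Myh11 (0.15) went the other way. In the plasma cell list these were Prdm1 (-0.49) and Sdc1 (0.71), and in the erythroid list Ermap (-0.61) and Alas2 (-0.50). No gene of any marker list passed the threshold. Mrc1, Marco, Cnn1 and Myh11 were named after their values were seen. Scores of B, T, plasma cell, macrophage, erythroid, adipocyte and smooth muscle markers gave correlations between -0.32 and 0.49. The highest, of the B cell score, was -0.24 without +/L mice 866 and 23.

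The base composition of the probe also moved with the difference. Over all other kept probes, the median log2 difference was 0.10 for the 10781 probes with up to 40% G and C, -0.01 for 9433 probes above 40% and up to 45%, -0.14 for 4200 probes above 50% and up to 55%, and -0.44 for the 158 probes above 60%, of which 28.5% had an unadjusted p under 0.05 and a lower mean in +/L. The 8 coding histone probes above 60% had a median of -1.03, and the 10 above 55% and up to 60% had one of -0.97, where the 243 other probes of that composition had -0.21. The 5 coding probes above 50% and up to 55% had a smaller median of -0.42, where the 4200 other probes had -0.14. Of these 5, 0.0% had an unadjusted limma p under 0.05. The 3 coding probes with up to 50% G and C, of Hist1h1b, Hist1h1e and Hist3h2a, had differences of -0.76, -1.31 and -1.30. The median correlation with the coding histone score was -0.14 for other probes up to 40% and 0.62 for those above 60%.

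**Figure D5:**
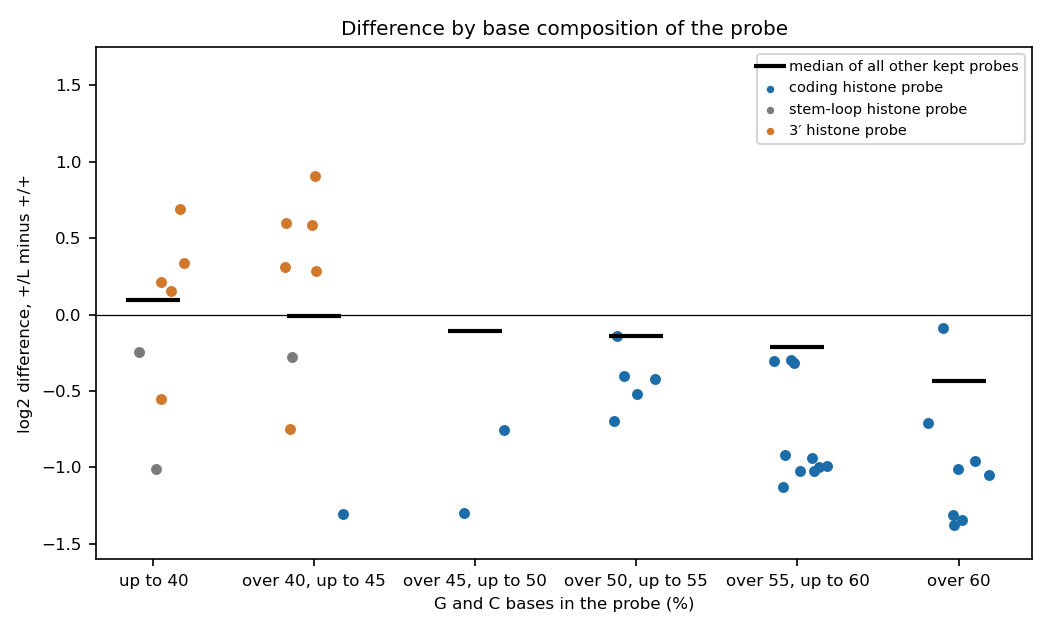
Log2 difference between +/L and +/+ tumours (y axis) by the share of G and C in the probe (x axis, 6 ranges); black bars are medians of all other kept probes in the range and points are the 40 kept histone probes, spread sideways within a range. The bars run from 0.10 at up to 40% down to -0.44 above 60%, and 24 of 26 coding histone probes lie below the bar of their range.

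Promoters were looked at because the coding probes moved together across clusters. RefSeq windows (GRCm38.p6) were found for 30 of the 36 gene names, 31 windows in all, and the 250 bases before the start were searched on both strands. The box CCAAT stood in 27 of the 31 windows (87.1%), against 33.9% of 32851 windows of all genes. It was in all 6, 10 and 8 windows of H1, H2A and H2B genes, in 1 of 2 H3 and in 2 of 5 H4 windows. TATAAA stood in 17 windows (54.8%), against 12.4% of all. The pattern TTGCNNAA, a form of the site C/EBP proteins are known to bind, stood in 5 windows (16.1%), against 9.56% of all, in 3 of H2A and 2 of H2B genes. The 150 bases before the start of an H2A, an H2B and an H1 gene follow, with these matches in capitals (ATTGG is CCAAT on the other strand).
Hist1h2ak: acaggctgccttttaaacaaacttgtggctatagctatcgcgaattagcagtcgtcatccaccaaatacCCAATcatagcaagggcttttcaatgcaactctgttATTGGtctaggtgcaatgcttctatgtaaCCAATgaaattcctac
Hist1h2bm: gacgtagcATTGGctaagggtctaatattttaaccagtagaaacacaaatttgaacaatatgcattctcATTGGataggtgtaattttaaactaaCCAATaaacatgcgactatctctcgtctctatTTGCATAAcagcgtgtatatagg
Hist1h1e: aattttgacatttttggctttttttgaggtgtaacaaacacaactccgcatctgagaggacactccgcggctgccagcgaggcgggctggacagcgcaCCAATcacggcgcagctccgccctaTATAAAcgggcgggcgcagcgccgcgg

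In GRCm38.p6 they are chr13:21753913-21754062 (minus), chr13:21721894-21722043 (plus) and chr13:23622559-23622708 (minus). The printed stretches of Hist1h2ak and Hist1h2bm hold 3 CCAAT boxes each. Signals of their probes cannot be given to 1 gene, as said above, and a relation of promoter letters to the differences was not tested. Of the 3 printed stretches, only that of Hist1h2bm holds TTGCNNAA. Such a match is a run of letters and shows no binding. Whether C/EBP proteins or other proteins use these letters was not tested.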

How the data were processed

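Lymphomas of 5 +/L and 5 +/+ mice were each measured on 1 single-colour array. The deposited intensity values are Agilent Feature Extraction 10.5.1.1 processed signals, background-subtracted and not scaled between arrays, per the file headers, with probe positions on mm9. The authors' deposited value table is on a log2 scale, with a centring that the labels do not give, and served as an alternative. Spots of a probe were averaged as log2 signal minus the array's 75th percentile. Probes well above background on at least 3 arrays and free of outlier flags were kept (26410), and 69 were left out for flags alone; 0 spots were saturated. Groups were compared with limma 3.58.1 (R 4.3.3) and Benjamini-Hochberg adjustment over all kept probes at 0.05, tested first on simulated data, and with exact permutation tests over the 252 assignments of tumours. The number of arrays limits the precision. Headers and descriptions differ on the slide of mice 866 and 17, and the headers were used.

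Members, lists and the sorting by site were chosen with earlier results of these data known. Named were, per class, the 3 genes of highest mean, the 4 genes of lowest p per direction, genes whose probes differ in sign, the 2 genes of lowest p per list, and Slbp, Npat, Pcna, Mki67, H2afz, H3f3b, Cd79a, Cd3e and Cd8a.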

Additional observations from a re-analysis of the deposited data

Results flagged for a closer look

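The score of the 11 further 3′ histone probes was 1.36 in +/L mouse 20, against -0.37 to -0.07 in the other 4 +/L tumours. Its gap to the nearest tumour, as a share of the range of the 5, exceeded Dixon's critical value of 0.71. Of 60 groups examined in this way 1 stood out, and chance alone marks about 1 in 20.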

How the results depend on the processing

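No histone probe passed an adjusted p of 0.05 under any of 25 alternatives, the lowest being 0.253. Over all probes the count was 1 with normexp and quantile scaling, 1 with the deposited value table, and 0 to 3 when 1 tumour was left out (3 without +/L mouse 517). Histone probes at an unadjusted p under 0.05 and lower in +/L numbered 0 with age as a covariate and 5 in female-labelled mice. Over all 26410 probes these counts were 903 and 2056. With slides as in the descriptions (which takes 3 +/+ arrays out of the comparison) it was 0, against 416 of all probes. With no scaling between arrays it was 2, against 54, and with 1 tumour left out 6 to 17, against 722 to 2449. Those higher in +/L numbered 1 with the value table, 1 with sex as a covariate and 1 in female-labelled mice. Over all probes these counts were 937, 1049 and 929. With no scaling it was 4, against 4955, and with 1 tumour left out 0 to 1, against 554 to 1330. The median over kept histone probes was -0.070 with age and -0.049 with no scaling; that of coding probes was -0.15 with age, and that of further 3′ probes 0.89 with no scaling. The correlation of all kept histone probes with S-phase genes was 0.22 without the 2 farthest tumours. Of 571 values of named probes under an alternative, 23 reversed, in 9 of 23 probes. With age as a covariate these were Hist1h1b (0.19), Hist2h3c1 (0.30), Hist1h3d (0.34) and Hist1h3a (0.49). With no scaling, where the median over all probes was 0.58, they were Hist1h2bm (0.28), Hist1h2bk (0.26), Hist3h2bb (0.28), Hist2h3c1 (0.49), Hist1h3d (0.44) and Hist1h3a (0.30). Hist2h3c1 and Hist1h3d gave 0.17 and 0.073 with quantile scaling, 0.21 and 0.12 with normexp, and 0.31 and 0.18 with the value table. Hist2h3c1 gave 0.013 with sex as a covariate and -0.23 to 0.027 with 1 tumour left out, and Hist1h3a gave 0.034 with slides as in the descriptions and -0.53 to 0.023 with 1 tumour left out. Hist1h1c gave -0.0026 in female-labelled mice, and the 3′ probe of Hist3h2a -0.008 without mice 20 and 11. The cause was not tested. No paired analysis was possible because the groups share no replicate numbers. The no-scaling setting was chosen after seeing the data.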

Other observations

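Outside the histone genes, the kept probes most like the coding histone score over the 10 tumours were AK015962 (r = 0.993), H2afj (0.992), Agpat1 (0.970), RP23-480B19.10 (0.969), Lsm11 (0.964) and Cd52 (0.963). They were picked out by that likeness, and the probe of RP23-480B19.10 shares a run of 28 bases with a Hist1h2af probe.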
